A study of Homo sapiens with 18 samples.

Results

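The 7 genes described here encode FOXM1, the MYB proteins that join the MuvB complex (MYBL2, which encodes B-MYB, and its relative MYBL1) and the MuvB subunits LIN9, LIN37, LIN52 and LIN54. They were chosen by name, 7 of the 62703 genes in the deposited tables, and all 7 had enough reads to be tested in every comparison. Polyadenylated RNA came from MDA-MB-231 cells, a breast cancer line of the triple-negative class (no estrogen or progesterone receptor and no HER2 amplification). In the knockdown experiment, cells were transduced for 24 h with lentivirus carrying Control shRNA, shEZH2 or shE2F1 and selected with 2 μg/ml puromycin for 72 h. In the drug experiment, cells were kept for 72 h in DMSO or in 1 μM GSK126, which blocks methylation by EZH2. EZH2 is the enzyme of Polycomb repressive complex 2 (PRC2), and E2F1 activates genes of the G1/S transition. The labels name 1 hairpin group for each target, and all 5 groups are otherwise the same unmodified line. Each group held 2 distinct libraries, 10 in all, since 8 of the 18 records hold the same values as another one. Nothing in the labels says that the libraries came from separate cultures, so p-values measure the spread between these libraries, which may be technical.

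MuvB is a small protein complex that binds the promoters of cell cycle genes and changes partners as the cell cycle proceeds. In resting cells it joins E2F4 or E2F5 and the pocket proteins p107 and p130 to form the repressor DREAM, and in cycling cells it exchanges them for B-MYB and then for FOXM1, which activate the genes of mitosis. LIN54 is the subunit that reads DNA, at a sequence called the CHR, and B-MYB is itself a known E2F target gene. In tumor cells FOXM1 and B-MYB are both associated with rapid division.

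The RefSeq promoter table (GRCh38.p14) held a window of 250 bases before to 50 bases after the annotated start for 5 of the 7 genes: MYBL2, LIN9, LIN37, LIN52 and LIN54. These windows are shown for the sequence elements that the pathway is known to read. Capitals mark the elements. The sequences run 5′ to 3′ on the strand of the gene. For LIN52 the whole upstream stretch is shown (chr14:74084706-74084955, plus strand), with an inverted CCAAT box near its far end and an E2F element 25 bases before the start.

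LIN52: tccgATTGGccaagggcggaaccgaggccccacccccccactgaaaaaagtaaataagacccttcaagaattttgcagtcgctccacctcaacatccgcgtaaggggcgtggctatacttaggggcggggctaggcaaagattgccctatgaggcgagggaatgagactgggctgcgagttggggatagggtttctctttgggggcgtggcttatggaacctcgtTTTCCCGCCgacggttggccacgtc

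Starts here are those of the RefSeq table. By the gene coordinates given below, the LIN52 stretch ends just before its gene, while the stretches that follow lie inside their genes. For the other genes a stretch of 30 bases around an element is shown, for MYBL2 the short E2F core 39 bases before the start (chr20:43667064-43667093, plus strand). For the remaining genes it is a CHR: in LIN54 100 bases before 1 of its 2 starts (chr4:83010906-83010935, minus strand), in LIN37 182 bases before the downstream of its 2 starts (chr19:35748620-35748649, plus strand) and in LIN9 60 bases before 1 of its 3 starts (chr1:226309207-226309236, minus strand).
MYBL2: ccgacgcgcttGGCGGGAgatagaaaagtg
LIN54: ggcccttgtgcgTTTGAAggttggcggggc
LIN37: acgaagctcatcTTTGAActgtccccgcct
LIN9: gcgagctccgcaTTCGAAcctccctcgcaa

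The elements were searched as letters on both strands. The CHR was searched as TTTGAA or TTCGAA, which 16.4% of all 35116 RefSeq windows of the same length held. The long E2F form was TTTCCCGC, TTTCGCGC, TTTGCCGC or TTTGGCGC (3.31% of windows), and among the genes described here LIN52 alone held it. The short core GGCGGGA was added after the windows had been read. It occurred in 15.4% of windows. Each of the 5 genes held the core in some window, but LIN9 and LIN37 also had windows without it. The LIN54 windows overlap and share their site. As several genes have more than a single window, this count of genes is not comparable with the share of windows. In LIN52 the core overlaps the long form. CCAAT was held by 34.6% of windows, and no window of the 5 genes held the forkhead letters TAAACA (12.3% of windows) or the MYB letters TAACGG or CAACGG (8.51% of windows). A match is a match of letters and no evidence of binding.

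The total of expected counts ran from 13198932 (shEZH2 replicate 1) to 20055550 (DMSO replicate 1) per library, which puts the upper limit for a gene with 0 counts at 0.150 to 0.227 CPM (the counts of a gene scaled to the same library total), by counting error only. The hairpins lowered their targets. EZH2 stood at 153 and 181 CPM in Control shRNA and 52.7 and 44.8 CPM in shEZH2, and E2F1 at 143 and 138 CPM in Control shRNA and 26.0 and 22.5 CPM in shE2F1. E2F1 was also low in shEZH2, at 62.5 and 32.3 CPM. EZH2 RNA was lower in shE2F1 than in both controls, at 121 and 137 CPM, so by RNA neither hairpin group isolates its target. As TPM, EZH2 was at 90.8 and 102 in Control shRNA and 77.1 and 90.8 in shE2F1. For protein the study reports the other direction, with more EZH2 after E2F1 knockdown. The markers of the line were as its name says for the hormone receptors, with PGR at 0 in all libraries and ESR1 at no more than 0.216 CPM, and the mesenchymal marker vimentin (VIM) was high. VIM stood at 3220 and 3520 CPM in Control shRNA, 1420 and 1280 CPM in shEZH2, and 2620 to 3490 CPM in the other libraries. E-cadherin (CDH1), an epithelial marker, was at 0.848 and 0.18 CPM in Control shRNA, 2.41 and 2.65 CPM in shEZH2, and 9.83 and 6.42 CPM in shE2F1. The mesenchymal marker FN1 in both knockdowns and the epithelial marker EPCAM in shE2F1 went the other way. FN1 was at 198 and 186 CPM in Control shRNA, 388 and 363 CPM in shEZH2, and 337 and 392 CPM in shE2F1. EPCAM was at 24.2 and 26.6 CPM in Control shRNA, 27.8 and 27.2 CPM in shEZH2, and 11.2 and 10.4 CPM in shE2F1. The part of these shifts in the results was not tested. Over all libraries ERBB2 was present at 46.1 to 90.3 CPM, EPCAM at 10.4 to 33.9 CPM and GATA3 at 8.7 to 16.4 CPM. The leukocyte marker PTPRC reached 0.645 CPM and the endothelial marker PECAM1 1.35 CPM. In bulk RNA, fewer cells in a phase of the cell cycle and less RNA per cell cannot be told apart. By flow cytometry the study reports more cells in G2/M and fewer in G1 after either knockdown. The part of this shift in the RNA results was not tested.

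Levels of different genes were compared as TPM, the deposited values that are scaled by transcript length. In Control shRNA, FOXM1 was the most abundant of the 7, at 176 ± 3.83 TPM (SD, n = 2). MYBL1 followed at 51.2 ± 1.02 TPM (SD, n = 2) and MYBL2 at 46.0 ± 1.38 TPM (SD, n = 2). The MuvB subunits were lower, with LIN37 at 16.6 ± 1.61, LIN54 at 15.9 ± 0.523, LIN9 at 8.86 ± 1.48 and LIN52 at 7.46 ± 0.0636 TPM (SD, n = 2 each). Of the neighbours in this order, LIN37 and LIN54 overlapped, at 15.4 and 17.7 TPM against 16.3 and 15.6 TPM. FOXM1 led in every group, with 121 to 191 TPM over the 10 libraries. The order below it changed in the knockdowns: MYBL2 came to stand above MYBL1 in shE2F1, at 75.4 against 59.0 TPM, and below LIN54 in shEZH2, at 23.4 against 24.3 TPM, where the libraries of MYBL2 and LIN54 overlapped. LIN52 had the lowest mean of the 7 in each group.

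**Figure D1:**
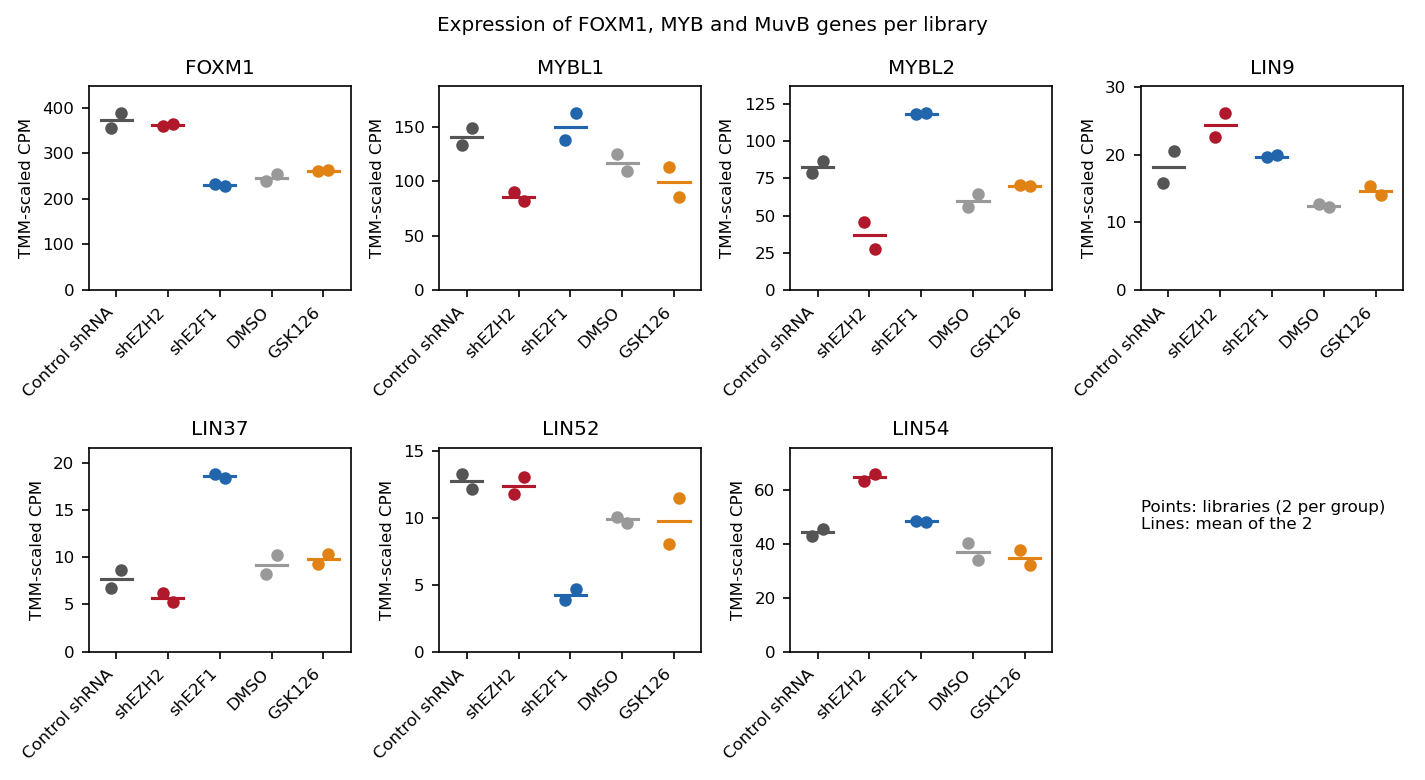
Level of each of the 7 genes as TMM-scaled CPM (vertical axes, starting at 0, each panel with its own range) in the libraries of the 5 groups (horizontal axis). Points are libraries and lines the mean of the 2 libraries of a group. FOXM1 and LIN52 have their lowest means in shE2F1, MYBL1, MYBL2 and LIN37 have theirs in shEZH2, and the DMSO and GSK126 libraries lie close to each other.

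The knockdown comparisons asked how these genes changed with the hairpin against EZH2 and with that against E2F1. With shEZH2, MYBL2 and MYBL1 fell, LIN54 and LIN9 rose, and no change in FOXM1 was detected. With shE2F1 the picture was another one: FOXM1 and LIN52 fell, and LIN37 and MYBL2 rose. A gene is said to rise or fall at an adjusted p under 0.05, and to be called at an adjusted p under 0.01 if it also changed over 2-fold, as the study required. Changes are given on the log2 scale, as fitted by edgeR, with their standard error (SE), and each adjusted p is corrected over all 15373 genes of the knockdown fit. In shEZH2 against Control shRNA, 2 of the 7 genes rose and 2 fell, where 27.0% of all genes tested rose and 28.6% fell. MYBL2 was the 1 gene called, in the direction in which 10.7% of all genes were called. In shE2F1 against Control shRNA, 2 rose and 2 fell, beside 21.1% and 23.7% of all genes. LIN37 was called higher and LIN52 lower, as were 5.6% and 5.96% of all genes. Both contrasts use the same Control shRNA libraries, so their values are given side by side and not as independent results.

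**Figure D2:**
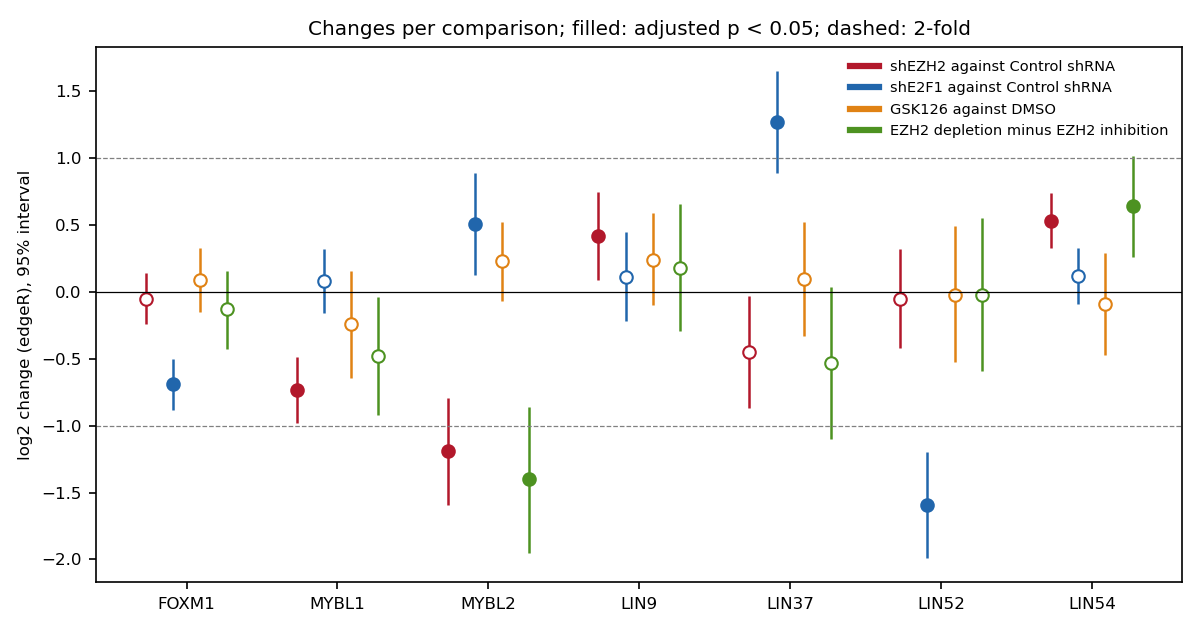
Change of each gene (horizontal axis) as log2 values from edgeR with 95% intervals (vertical axis) in shEZH2 and shE2F1 against Control shRNA, GSK126 against DMSO, and the depletion change minus the inhibition change. Filled points have an adjusted p under 0.05 and dashed lines mark 2-fold. MYBL2 lies at -1.19 in shEZH2 and 0.51 in shE2F1, and all 7 points of GSK126 are open.

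FOXM1 (ENSG00000111206, chromosome 12, 2857680 to 2877174, minus strand, GRCh38) encodes the forkhead activator of mitotic genes. It stood at 355 and 389 CPM in Control shRNA, 359 and 364 CPM in shEZH2, and 233 and 229 CPM in shE2F1. The shEZH2 libraries lay within the range of the controls, and both shE2F1 libraries lay below all others of the knockdown experiment. The untransduced DMSO libraries of the drug experiment also lay below Control shRNA, at 238 and 255 CPM. As TPM, shE2F1 and DMSO overlapped, at 121 and 122 against 122 and 121, and this difference between experiments was not tested. FOXM1 fell by 0.69 on the log2 scale in shE2F1 (SE 0.09, edgeR adjusted p = 0.000103, lower in both libraries), to 0.618 of the control level. In shEZH2 it changed by -0.05 ± 0.09 (SE, edgeR adjusted p = 0.618), with a 95% interval from -0.24 to 0.14, so that a loss as large as in shE2F1 lies outside the interval. The direct comparison of both hairpins gave a FOXM1 level 0.64 ± 0.09 (SE) higher in shEZH2 than in shE2F1 on the log2 scale (edgeR adjusted p = 9.07e-05).

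Genes next to FOXM1 were read for comparison. TULP3, a gene of ciliary transport on the opposite strand, starts 49 bases from the FOXM1 start and was at 45.1 and 40.6 CPM in Control shRNA, 37.9 and 40.8 CPM in shEZH2, and 25.7 and 23.8 CPM in shE2F1. RHNO1, whose product acts in the DNA damage checkpoint, starts 916 bases away, also on the opposite strand, and overlaps FOXM1 by 917 bases. RHNO1 was at 58.7 and 63.4 CPM in Control shRNA, 47.3 and 54.5 CPM in shEZH2, and 19.4 and 18.8 CPM in shE2F1. In shE2F1 both fell along with FOXM1, TULP3 by 0.80 (SE 0.11, edgeR adjusted p = 0.000218) and RHNO1 by 1.68 (SE 0.11, edgeR adjusted p = 2.07e-06) on the log2 scale. In shEZH2, RHNO1 fell by 0.27 (edgeR adjusted p = 0.047), and TULP3 changed by -0.14 (edgeR adjusted p = 0.315). ITFG2, which overlaps the far end of FOXM1 by 2112 bases on the opposite strand, moved otherwise, at 16.6 and 16.6 CPM in Control shRNA and 20.8 and 21.6 CPM in shE2F1, a change of 0.34 that did not pass (edgeR adjusted p = 0.0644). Of the 50-base stretches of FOXM1 transcripts, 13.3% also occur in ITFG2. Whether counting used the strand is not given in the sources used here. Without it, reads of such overlaps could go to either gene.

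**Figure D3:**
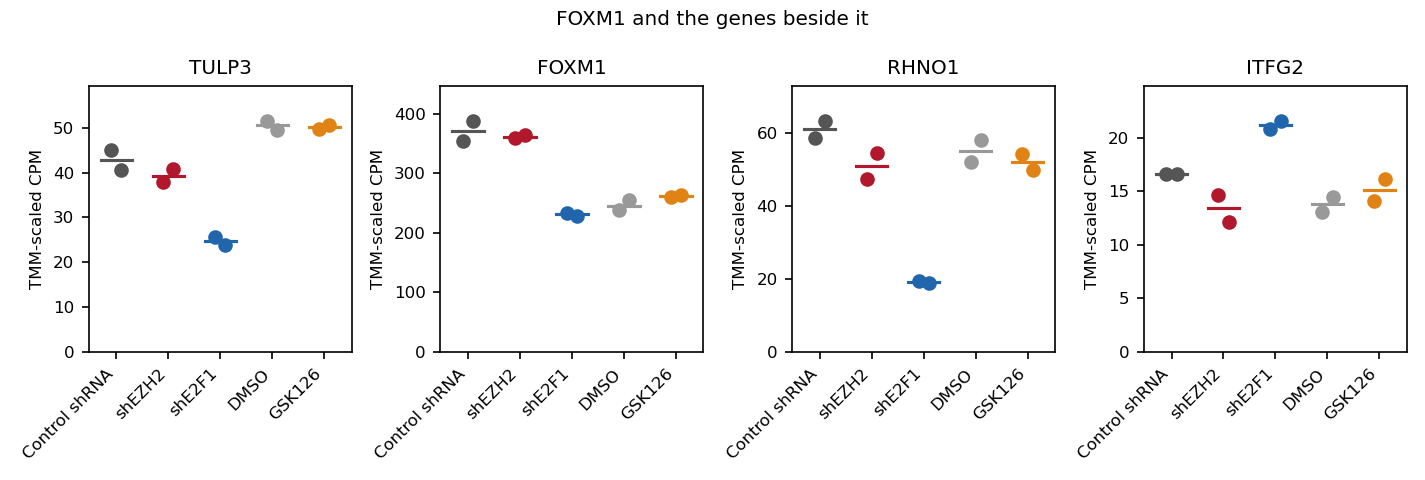
TMM-scaled CPM (vertical axes, starting at 0) of TULP3, FOXM1, RHNO1 and ITFG2 in the libraries of the 5 groups (horizontal axis). Points are libraries and lines group means. TULP3, FOXM1 and RHNO1 are lowest in the shE2F1 libraries, and ITFG2 is highest there.

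MYBL2 (ENSG00000101057, chromosome 20, 43667019 to 43716495, plus strand) encodes B-MYB, the partner that MuvB takes up in S phase. It stood at 78.5 and 86.6 CPM in Control shRNA, 45.8 and 27.7 CPM in shEZH2, and 118 and 119 CPM in shE2F1. The 3 groups did not overlap, with shEZH2 below and shE2F1 above the controls, and the shEZH2 libraries lay further apart than those of any other group. In shEZH2, MYBL2 fell by 1.19 on the log2 scale (SE 0.18, edgeR adjusted p = 0.00028, lower in both libraries). In shE2F1 it rose by 0.51 ± 0.17 (SE, edgeR adjusted p = 0.0333, higher in both libraries). Between the hairpins the difference was -1.70 ± 0.18 (SE, edgeR adjusted p = 1.78e-05), shEZH2 minus shE2F1. The call in shEZH2 rested on replicate 2: without it the change was -0.84 (edgeR adjusted p = 0.000375), under 2-fold. E2F1 was also the lower in that library, at 32.3 against 62.5 CPM, and the part of this in the MYBL2 result was not tested. The call was also lost with a correction for GC content and length, at -0.79, and the rise in shE2F1 did not pass when any 1 of the 4 libraries compared was left out (0.44 to 0.59, edgeR adjusted p from 0.0526 to 0.135).

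MYBL1 encodes A-MYB, a MYB protein best known from germ cells that can also bind MuvB (ENSG00000185697, chromosome 8, 66562175 to 66614247, minus strand). Its levels were 133 and 149 CPM in Control shRNA, 90.3 and 81.4 CPM in shEZH2, and 138 and 163 CPM in shE2F1. Both shEZH2 libraries lay below all others of the experiment, while shE2F1 and the controls overlapped. In shEZH2, MYBL1 fell by 0.73 on the log2 scale (SE 0.11, edgeR adjusted p = 0.000259), which is less than 2-fold. It reached -1.01 with the correction for GC content and length, past the call. In shE2F1 its change was 0.08 (95% interval -0.16 to 0.32, edgeR adjusted p = 0.577). The hairpins differed by -0.81 ± 0.11 (SE, edgeR adjusted p = 9.8e-05), shEZH2 minus shE2F1.

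LIN54 (ENSG00000189308, chromosome 4, 82909973 to 83012926, minus strand), the DNA-binding subunit, was at 42.9 and 45.7 CPM in Control shRNA, 63.5 and 65.9 CPM in shEZH2, and 48.6 and 48.1 CPM in shE2F1. The shEZH2 libraries stood above all others. LIN54 rose in shEZH2 by 0.53 ± 0.09 (SE, edgeR adjusted p = 0.000705), and in shE2F1 its change was 0.12 (95% interval -0.09 to 0.33, edgeR adjusted p = 0.332), although the libraries did not overlap. It was higher in shEZH2 than in shE2F1 by 0.42 ± 0.09 (SE, edgeR adjusted p = 0.00292). With a correction for GC content and length neither passed, the rise in shEZH2 being 0.22 (edgeR adjusted p = 0.0514) and the difference between the hairpins 0.06 (edgeR adjusted p = 0.537). THAP9, a gene on the opposite strand that overlaps LIN54 by 9997 bases, was at 1.27 to 2.97 CPM over the knockdown libraries.

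LIN9 (ENSG00000183814, chromosome 1, 226231149 to 226309869, minus strand), a subunit of the MuvB core that contacts B-MYB, was at 15.8 and 20.5 CPM in Control shRNA, 22.6 and 26.2 CPM in shEZH2, and 19.6 and 19.9 CPM in shE2F1. The shEZH2 libraries were above the controls, and the shE2F1 libraries lay between the controls. LIN9 rose by 0.42 ± 0.15 (SE) in shEZH2 (edgeR adjusted p = 0.0347, higher in both libraries), which did not pass without Control shRNA replicate 1 (0.24, edgeR adjusted p = 0.22), without shEZH2 replicate 2 (0.32, 0.175), with the correction for GC content and length (0.28, 0.0973), in the fit of the 4 libraries alone (0.41, 0.0662) or by DESeq2 (0.44, 0.0523). It passed in 7 of 13 alternatives. In shE2F1 it changed by 0.11 (95% interval -0.22 to 0.45, edgeR adjusted p = 0.563). The difference between the hairpins was 0.30 (95% interval -0.02 to 0.63, edgeR adjusted p = 0.0996).

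LIN37 (ENSG00000267796, chromosome 19, 35748361 to 35754519, plus strand), a subunit needed for repression by DREAM, had 128 and 144 expected counts in Control shRNA, 81.6 and 90.8 in shEZH2, and 393 and 342 in shE2F1. As CPM these were 6.78 and 8.64, 6.18 and 5.24, and 18.8 and 18.4. The shE2F1 libraries stood above all other libraries of the series, and the shEZH2 libraries were the lowest. LIN37 rose by 1.27 ± 0.17 (SE) in shE2F1 (edgeR adjusted p = 0.000177, higher in both libraries), and its TPM went the same way, from 15.4 and 17.7 to 37.4 and 37.4. In shEZH2 the change was -0.45 ± 0.19 (SE, edgeR adjusted p = 0.064), which does not pass, and the hairpins differed by -1.72 ± 0.18 (SE, edgeR adjusted p = 1.47e-05), shEZH2 minus shE2F1. LIN37 counts are uncertain, because 49.6% of the 50-base stretches of its transcripts occur in overlapping annotated genes. A same-strand gene that runs through LIN37 (ENSG00000188223) holds 22.9% of them and a long noncoding RNA on the opposite strand (ENSG00000267439) 32.9%. These were counted at no more than 1.09 and 0.0754 CPM, and RSEM's posterior SD of the LIN37 count was at most 6.46 reads.

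LIN52 (ENSG00000205659, chromosome 14, 74084956 to 74201493, plus strand) is the subunit whose phosphorylation by the kinase DYRK1A starts the assembly of DREAM. It had 251 and 204 expected counts in Control shRNA, 156 and 228 in shEZH2, and 80.0 and 87.0 in shE2F1, which is 13.3 and 12.2, 11.8 and 13.1, and 3.84 and 4.69 CPM. The shE2F1 libraries were the lowest of the series, and shEZH2 overlapped the controls. The LIN52 count fell by 1.59 on the log2 scale in shE2F1 (SE 0.18, edgeR adjusted p = 5.23e-05, lower in both libraries), and the hairpins differed by 1.55 ± 0.18 (SE, edgeR adjusted p = 3.32e-05), shEZH2 minus shE2F1. In shEZH2 its change was -0.05 (95% interval -0.42 to 0.32, edgeR adjusted p = 0.823).

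The TPM of LIN52 showed much less of this fall. It was 7.51 and 7.42 in Control shRNA and 5.56 and 6.52 in shE2F1, a log2 ratio of the means of -0.31, for which no test was run. What differed was the mean transcript length that RSEM assigned to the gene, 2713 and 2413 bases in Control shRNA but 1248 and 1338 bases in shE2F1. In the other 6 libraries it was between 2228 and 2654 bases. The annotation holds coding LIN52 transcripts of 2874 and 566 bases, and others of 2339, 585 and 271 bases. On the scale of reads LIN52 was at 0.331 of control in shE2F1, and on the scale of transcripts it was closer to the control, because TPM divides by a length that was itself shorter there. Counts of the single transcripts were not analysed here. ALDH6A1, a mitochondrial enzyme of valine breakdown whose gene starts 464 bases away on the opposite strand, changed by 0.38 in shE2F1 (edgeR adjusted p = 0.0797).

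**Figure D4:**
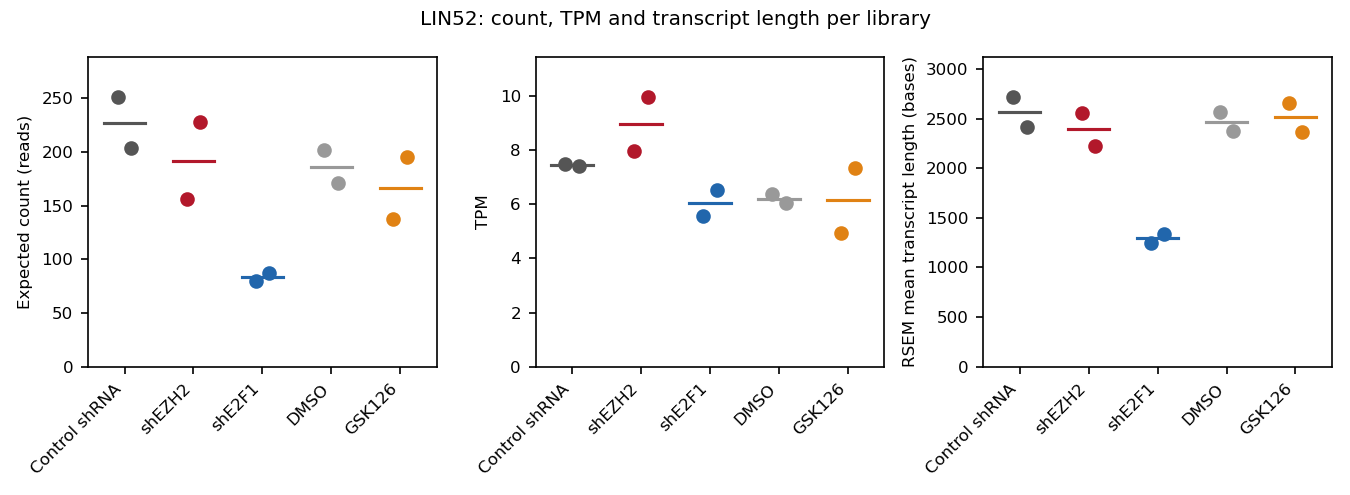
LIN52 in each library of the 5 groups (horizontal axes) by its RSEM count in reads, its TPM and the mean transcript length in bases that RSEM assigned (vertical axes, starting at 0). Points are libraries and lines group means. The shE2F1 libraries have 80.0 and 87.0 reads and lengths of 1248 and 1338 bases, below all other libraries, while their TPM of 5.56 and 6.52 lies in the range of the DMSO and GSK126 libraries.

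The direct test of shEZH2 against shE2F1, which uses no control library, separated the genes as follows. FOXM1, LIN52 and LIN54 were higher with shEZH2 and MYBL1, MYBL2 and LIN37 higher with shE2F1. Thus 3 of 7 passed in each direction, beside 29.7% and 30.6% of all genes. Of these, LIN52 was called higher and MYBL2 and LIN37 were called lower in shEZH2, as were 10.4% and 12.9% of all genes. With the correction for GC content and length, MYBL1 was called too, at -1.12.

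Inhibition of EZH2 by GSK126 was compared with DMSO to ask whether the methyltransferase activity of EZH2 matters for these genes. The DMSO libraries held FOXM1 at 238 and 255 CPM, and the GSK126 libraries at 261 and 264 CPM. MYBL2 was at 55.5 and 64.3 CPM with DMSO against 70.2 and 69.8 CPM with GSK126, and LIN9 at 12.7 and 12.2 against 15.4 and 14.0 CPM. In these genes both GSK126 libraries lay above both DMSO libraries, while MYBL1, LIN37, LIN52 and LIN54 overlapped. By edgeR none of the 7 passed, with changes from -0.24 (MYBL1) to 0.24 (LIN9), adjusted p of 1.0 each, and unadjusted p of 0.107 or more. Across the genome 0 of 14632 genes passed (0%), 577 had an unadjusted p under 0.05, and DESeq2 called 11. The 95% intervals were widest for LIN52, from -0.52 to 0.49, and LIN37, from -0.33 to 0.52, so that smaller changes than these were not detectable here. For FOXM1 the interval was -0.15 to 0.33 and for MYBL2 -0.07 to 0.52. The result depends on the model. With the replicate number as a block, an alternative described at the end, MYBL1 fell (edgeR adjusted p = 0.000176) and MYBL2 rose (edgeR adjusted p = 0.00298).

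Whether losing EZH2 differs from inhibiting it was tested as the shEZH2 change minus the GSK126 change, in a fit of all 10 libraries. MYBL2 differed most of the 7, by -1.40 ± 0.25 (SE, 95% interval -1.95 to -0.86, edgeR adjusted p = 0.00125), and it was called, as were 8.67% of all 15773 genes in that direction. LIN54 differed by 0.64 ± 0.18 (SE, edgeR adjusted p = 0.0136). This was 0.31 with the correction for GC content and length, and it passed in 10 of 15 alternatives. The LIN54 difference did not pass without shEZH2 replicate 2, Control shRNA replicate 1, GSK126 replicate 2 or DMSO replicate 1 (adjusted p from 0.0504 to 0.0662). Thus 1 of 7 passed in each direction, beside 19.7% of all genes lower and 16.9% higher. For MYBL1 the difference was -0.48 (95% interval -0.92 to -0.04, edgeR adjusted p = 0.0826), and for FOXM1 it was -0.13 (95% interval -0.43 to 0.16, edgeR adjusted p = 0.478). The knockdown and drug experiments differ in virus, selection and control, and these cannot be told apart from the way EZH2 was removed.

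Partners of MuvB in the DREAM repressor were followed next. Of 7 such genes, 2 rose and 3 fell in shEZH2, with a median change of 0.16 beside -0.02 over all genes, of which 27.0% rose and 28.6% fell. In shE2F1, 3 rose and 2 fell, with a median of 0.22, beside 21.1% and 23.7% of all genes. RBL2, which encodes p130, rose in both, by 1.09 ± 0.16 (SE) in shEZH2 (edgeR adjusted p = 0.000213) and 0.74 ± 0.16 (SE) in shE2F1 (edgeR adjusted p = 0.00341). RBL1, which encodes p107, rose in shE2F1 by 0.63 and changed by 0.16 in shEZH2 (edgeR adjusted p = 0.155). The repressive E2F genes fell in both: E2F5 by 1.68 in shEZH2 and 2.13 in shE2F1, and E2F4 by 0.33 in shEZH2 and 1.00 in shE2F1, on the log2 scale. The E2F4 change in shEZH2 was small. As TPM, E2F4 overlapped, at 63.8 and 68.8 in Control shRNA and 63.5 and 66.4 in shEZH2. With the correction for GC content and length, and in the fit of all 10 libraries, 2 of the 7 partners fell in shEZH2 in place of 3. E2F5 was weakly expressed, with 64 counts on average over the knockdown libraries. RBBP4, a histone chaperone that is part of MuvB and of PRC2, fell by 0.65 in shEZH2 (edgeR adjusted p = 0.000147) and rose by 0.27 in shE2F1 (edgeR adjusted p = 0.0289). Of the dimer partners of E2F, TFDP2 rose by 0.64 in shEZH2 and changed by 0.04 in shE2F1, and TFDP1 passed in neither, at 0.19 and 0.22. As TPM, for which no test was run, TFDP2 was above the controls with either hairpin. It was at 12.1 and 13.4 TPM in Control shRNA, 23.0 and 19.4 TPM in shEZH2, and 22.2 and 22.8 TPM in shE2F1.

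Kinases, cyclins and other regulators of these proteins made a list of 15. Many of them, such as CCNB1, PLK1 and CCNE2, are also in the lists of late or early cell cycle genes below. The lists are therefore not separate observations. In shEZH2, 3 rose and 8 fell (median -0.46), beside 27.0% and 28.6% of all genes. In shE2F1, 2 rose and 6 fell (median -0.22, beside a median of 0 over all genes), where 21.1% and 23.7% of all genes did. Of the rises in shE2F1, CCNE2 and CDKN1A, 0 passed when either shE2F1 replicate was left out. PLK1, the mitotic kinase that phosphorylates FOXM1 and B-MYB, fell by 1.65 in shEZH2 and 1.26 in shE2F1. Cyclin B1 (CCNB1) fell by 1.28 and 1.26, each on the log2 scale. CDK2, the S phase kinase, fell by 1.10 in shEZH2. DYRK1A, the kinase of LIN52, rose by 1.06 ± 0.11 (SE) in shEZH2 (edgeR adjusted p = 1.78e-05). The cell cycle inhibitor p21 (CDKN1A) rose by 0.34 in shEZH2 and 0.41 in shE2F1, and FZR1, an activator of the anaphase-promoting complex, fell by 0.90 in shE2F1.

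Target genes of FOXM1 and B-MYB-MuvB, 55 genes of G2 and mitosis, mostly fell in both knockdowns. In shEZH2, where no change in FOXM1 was detected and MYBL2 fell, 40 of the 55 fell, none rose and 15 did not pass, with a median change of -0.54, beside 28.6% of all genes lower and 27.0% higher. In shE2F1, where FOXM1 fell and MYBL2 rose, 47 fell, 1 rose and 7 did not pass, with a median of -0.86, beside 23.7% lower and 21.1% higher. The kinase AURKB fell by 2.30, CDCA3 by 2.06 and PIMREG by 1.73 in shEZH2. The mitotic kinesin KIF20A fell by 1.78, ESPL1 (separase) by 1.65 and the spindle protein DLGAP5 by 1.29 in shE2F1, while SKA1, of the kinetochore, rose by 0.51, all on the log2 scale. Between the hairpins, 24 of the 55 were higher with shEZH2, 12 were lower and 19 did not pass, with a median of 0.18, beside 29.7% of all genes higher and 30.6% lower.

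Early cell cycle genes with E2F sites that DREAM represses made a list of 40, which holds EZH2 and E2F1, the targets of the hairpins themselves. In shEZH2, 29 fell and 4 rose (median -0.59), beside 28.6% and 27.0% of all genes. In shE2F1, 12 fell and 7 rose (median -0.14), not far from the 23.7% and 21.1% of all genes, and EZH2 and E2F1 are among the 12, as they are among the 29 of shEZH2. These shE2F1 counts were 6 and 4 without shE2F1 replicate 2, 8 and 3 without shE2F1 replicate 1, 12 and 3 without Control shRNA replicate 1, 10 and 8 without Control shRNA replicate 2, and 11 and 9 among genes that averaged at least 50 counts. In the direct comparison 25 were lower with shEZH2 and 5 higher (median -0.54), beside 30.6% and 29.7% of all genes. RRM2, the small subunit of ribonucleotide reductase, fell by 1.69 in shEZH2 and 2.42 in shE2F1. The atypical repressors moved apart in shEZH2, E2F8 falling by 1.82 and E2F7 rising by 1.3. In shE2F1 the DNA repair gene BRCA1 rose by 1.04, cyclin E2 (CCNE2) rose by 0.58 and GINS1, of the replicative helicase, fell by 1.12. The phosphatase gene CDC25A rose in shEZH2, by 0.39. With GSK126 no gene of either list passed by edgeR without a replicate block, with medians of 0.03 for the late and 0.10 for the early genes.

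**Figure D5:**
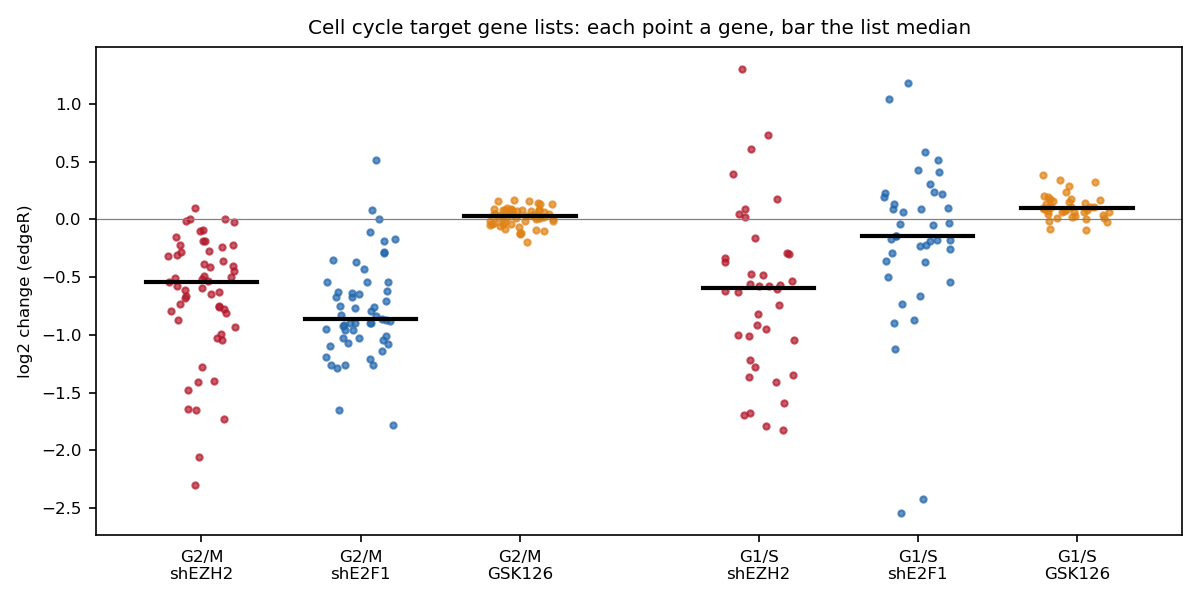
Change of each gene of the G2/M list (55 genes) and the G1/S list (40 genes) as log2 values from edgeR (vertical axis) in shEZH2, shE2F1 and GSK126 (horizontal axis). Each point is a gene and each bar the median of its list. The G2/M medians are -0.54, -0.86 and 0.03, and the G1/S medians are -0.59, -0.14 and 0.10.

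Relatives of FOXM1 and of the MYB genes were read last. Of 9, 5 rose and 0 fell in shEZH2 (median 0.47), beside 27.0% and 28.6% of all genes. With the correction for GC content and length 3 rose and 1 fell (median 0.29), and 1 also fell without Control shRNA replicate 2. In shE2F1, 3 rose and 4 fell (median -0.21), beside 21.1% and 23.7% of all genes. FOXO1, a forkhead factor that opposes growth, rose by 1.95 ± 0.25 (SE) in shEZH2 and 1.86 ± 0.24 (SE) in shE2F1, at a mean of 104 counts. FOXO3 rose by 0.43 in shEZH2 and changed by 0.12 in shE2F1, and FOXO4 rose by 1.87 in shE2F1 and changed by 0.37 in shEZH2 (edgeR adjusted p = 0.287). FOXP1, FOXN3 and FOXN2 rose in shEZH2 by 1.00, 0.54 and 0.47. In shE2F1, FOXP1 and FOXN3 fell by 0.55 and 0.69, and FOXN2 changed by -0.21. FOXK1 and FOXK2 fell in shE2F1 by 0.72 and 0.44 and changed by -0.24 and 0.18 in shEZH2. MYB, the founding member of its family, had a mean of 17 counts, and its changes of 1.29 and 1.40 had an adjusted p of 0.0519 in shEZH2 and 0.0408 in shE2F1 by edgeR.

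The genes whose levels followed FOXM1 and MYBL2 most closely over the 10 libraries were found by Pearson correlation of log2 CPM among 9505 genes that averaged 200 counts or more. The libraries share 5 groups, so r describes these groups and is given with no p. For FOXM1 these were CDCA2 (r = 0.965), the spindle checkpoint kinase BUB1 (0.961), GMEB1 (0.960), SNRPD1 (0.959) and FOSL1 (0.958). BUB1, at 204 and 245 CPM in Control shRNA, 193 and 204 CPM in shEZH2 and 122 and 130 CPM in shE2F1, is also in the G2/M list. For MYBL2 they were RFC2, a subunit of the clamp loader of DNA replication (0.980), AP5B1 (0.980), PLEKHJ1 (0.977), PMVK (0.977) and DHX37 (0.977). RFC2 was at 80.2 and 89.8 CPM in Control shRNA, 48.6 and 32.9 CPM in shEZH2, and 97.0 and 95.8 CPM in shE2F1, with the lower shEZH2 value again in replicate 2.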

How the data were processed

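The authors aligned reads to hg38 with STAR and quantified genes with RSEM, which was set to model where reads start along a transcript. The submitters' processing notes give STAR 2.7.2b and RSEM 1.3.1, and the methods of the study another STAR version. The deposited files hold RSEM expected counts, in which reads that fit several genes are divided between them, and TPM. They also hold transcript lengths in bases and, as another score, RSEM's posterior mean and SD of each count. The library kit was directional. Of 18 records, 8 repeated another and were counted 1 time.

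The rounded expected counts were tested with edgeR 4.0.16 in R 4.3.3 (filterByExpr, TMM, quasi-likelihood F-test, Benjamini-Hochberg over every gene in the fit). A fit took the 6 knockdown libraries, a separate one the 4 drug libraries, and the depletion minus inhibition contrast used all 10. SE is the size of the change divided by the square root of F. CPM were TMM-scaled over 10 libraries. The study used DESeq2, here an alternative (1.42.0). Lists were described by counts and medians, with no set test. Annotation was GENCODE 44, in which 99.9% of gene identifiers were found. Shared sequence was counted in stretches of 50 bases.

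Named genes were the 7 genes, all tested DREAM partners and MYB and FOX relatives, EZH2 and E2F1, and, for each other list and knockdown, up to 3 genes per direction with the largest change among those that had an adjusted p under 0.05, averaged 200 counts or more and did not overlap the controls. Neighbours overlapping a gene, or starting within 1000 bases on the other strand, and the 5 genes most like FOXM1 and MYBL2 were added. Of the genes that this rule takes, 1 is not reported here. The genes and lists were chosen with earlier results of these data known. Alternatives were DESeq2, its size factors, other filters and thresholds, the replicate number as a block, a GC and length correction by splines (5 degrees of freedom), other sets of libraries in the fit, TPM, and leaving out each replicate.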

Additional observations from a re-analysis of the deposited data

Results flagged for a closer look

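Effects of both hairpins differed, by the direct edgeR test of shEZH2 against shE2F1, in 6 of the 7 genes, beside 29.7% of all genes higher and 30.6% lower. FOXM1 differed by 0.64, LIN52 by 1.55 and LIN54 by 0.42 on the log2 scale, each higher with shEZH2. With the correction for GC content and length LIN54 differed by 0.06 (edgeR adjusted p = 0.537). As TPM, LIN52 differed less, at 7.97 and 9.96 in shEZH2 against 5.56 and 6.52 in shE2F1, where its assigned length was shorter. MYBL1 differed by -0.81, MYBL2 by -1.70 and LIN37 by -1.72, each lower with shEZH2. The effect of depleting EZH2 differed from that of inhibiting it in MYBL2, by -1.40, and in LIN54, by 0.64, tested as the difference of both changes. With the correction for GC content and length these were -1.01 and 0.31. No gene was tested for a library far from the others, since each group held 2 libraries.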

How the results depend on the processing

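The numbers of the 7 genes called were compared under each alternative. With an adjusted p under 0.05 and no fold required, they were 4 in shEZH2, 4 in shE2F1, 6 between the hairpins and 2 in depletion minus inhibition. Leaving out a replicate gave 0 to 1 in shEZH2, where the 0 came without shEZH2 replicate 2. A group left with 1 library is then assumed to vary like the others. With the GC and length correction the 1 gene called in shEZH2 was MYBL1 in place of MYBL2, and 4 were called between the hairpins. Directions turned only for changes that had not passed. With the GC and length correction, alone or with the replicate block, FOXM1 was 0.16 in shEZH2 and 0.09 in depletion minus inhibition, and LIN52 in the latter was 0.01 with DESeq2 and with its size factors. As TPM, the log2 ratio of shEZH2 to Control shRNA was 0.09 for FOXM1 and 0.26 for LIN52. Leaving out a replicate gave ranges across 0. In shEZH2 these were -0.12 to 0.02 for FOXM1 and -0.12 to 0.02 for LIN52. In shE2F1 they were -0.04 to 0.19 for MYBL1 and -0.07 to 0.32 for LIN9. With GSK126 they were -0.04 to 0.25 for LIN37, -0.29 to 0.21 for LIN52 and -0.22 to 0.05 for LIN54. In depletion minus inhibition they were -0.00 to 0.38 for LIN9 and -0.26 to 0.25 for LIN52. The causes were not tested.

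Replicates of DMSO and GSK126 share a number in the labels, and the difference between replicates correlated between these groups (r = 0.663 over 11919 genes, and -0.0814 to 0.205 for other pairs of groups), but with 2 pairs the numbers are not taken to pair the samples. With the replicate block the numbers of the 7 genes called were 1, 2, 3, 0 and 1 in the 5 comparisons, as without it. Under the block MYBL1 (-0.24, adjusted p = 0.000176) and MYBL2 (0.23, adjusted p = 0.00298) passed in GSK126, and MYBL1 in depletion minus inhibition (-0.47, adjusted p = 0.0173). Of the lists, 11 of 40 G1/S genes passed higher and 0 lower in GSK126 with the block, and 7 of 55 G2/M genes higher and 3 lower, against 0. Over all genes GSK126 called 68 with the block, 53 with the block and the GC and length correction, 11 with DESeq2 and 37 to 43 when a replicate was left out, against 0. With an adjusted p under 0.05 and no fold required, calls over all genes were 8550 in shEZH2 (2803 with the fold), 6879 in shE2F1 (1777), 9267 between the hairpins (3582) and 5780 in depletion minus inhibition (2176), and without shEZH2 replicate 2 depletion minus inhibition called 1305. Counts for the lists were recomputed by a choice made after seeing the data. The G2/M genes that fell numbered 35 to 49 in shEZH2 and 40 to 50 in shE2F1.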
